A study of Danio rerio with 55 samples.

Results

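Ezh2 binding to the chromatin of zebrafish embryos at 24 hours post-fertilization (hpf) was compared between embryos lacking maternal and zygotic Ezh2 (MZezh2 mutants) and wild-type embryos, as recorded in 4 deposited peak lists, 2 replicates of each genotype. The lists were chosen by their labels, as all Ezh2 ChIP-seq libraries among the 55 samples of the series. They hold 6797 of the 121244 peaks in its 18 peak lists, with 21 and 699 peaks in mutant replicates 1 and 2, against 3940 and 2137 peaks in wild-type replicates 1 and 2. The other lists, for H3K27me3, Rnf2 and H3K4me3, served only to describe the Ezh2 regions.

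Ezh2 is the catalytic subunit of Polycomb Repressive Complex 2 (PRC2), which trimethylates a lysine of histone H3 to give the mark H3K27me3. Another subunit of the complex reads this mark, and in vertebrate embryos PRC2 occupies wide domains over Hox clusters and other genes of developmental transcription factors that are silent in a given cell. Rnf2 is a catalytic subunit of PRC1, the complex that ubiquitinates histone H2A, and H3K4me3 marks the promoters of active and poised genes.

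The mutant embryos were MZezh2-/-, homozygous in egg and zygote for the ezh2 nonsense allele hu5670, whose premature stop lies in the catalytic SET domain. They came from parents whose germ cells had been replaced by transplantation. By the study's methods, the wild-type embryos came from siblings with a wild-type germ line, also obtained during transplantation. Mutant and wild-type ChIP libraries were both made from pooled whole embryos of a TU/TLF mixed background at 24 hpf, with the same Ezh2 antibody. Replicate 2 of both genotypes also received Drosophila chromatin and a further antibody, named H2Aγ in the labels, as a spike-in control, and replicate 1 of both did not. The spike-in and the replicate number therefore cannot be told apart. All lists were called against input DNA of wild-type embryos, which the labels assign to strain AB and not to TU/TLF. Whether copy number differs between the strains, or between the mutant and wild-type embryos, was not tested. The lists give no read depth, so no precision per peak can be derived, and they still include peaks that the study removed later because they were also called on input DNA.

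Expression of ezh2 itself was read first as a check of the labels. Its RNA at 24 hpf ranged from 37.0 to 126 CPM (reads scaled to a common library total) with a median of 47.5 CPM in 7 mutant libraries, against 106 to 218 CPM with a median of 180 CPM in 6 wild-type libraries. The mean of log2(CPM + 1) was lower by 1.34 in mutants (exact permutation test, two-sided, p = 0.00932), although the ranges overlapped. A nonsense allele need not abolish the RNA, so this difference says nothing of the protein. In 3 mutant and 3 wild-type libraries, 19.0 to 41.6% of the ezh2 reads lay on the opposite strand, and in the other 4 mutant and 3 wild-type libraries 0.850 to 9.66%. Within these sets of libraries the genotypes did not overlap, at 106 to 126 CPM in mutants against 210 to 218 CPM in wild type where the opposite-strand share was high, and at 37.0 to 47.5 against 106 to 149 CPM where it was low. Counted on the strand of the gene alone, ezh2 reached 36.1 to 73.7 CPM in mutants and 104 to 175 CPM in wild type.

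The mutant lists held fewer and shorter Ezh2 peaks than the wild-type lists, but by very different margins in the replicates. Peak number was 188 times lower in mutant than in wild-type embryos in replicate 1 and 3.06 times lower in replicate 2. Peaks summed to 4924 and 290940 bp in mutants and to 4552934 and 943669 bp in wild type. Peaks were short in every list except that of wild-type replicate 1. Median width was 150 and 236 bp in mutants and 492.5 and 300 bp in wild type. Peaks over 5 kb numbered 0 and 1 in the mutant replicates and 189 and 2 in the wild-type replicates, the widest being 1323 and 8367 bp in mutants and 40497 and 8340 bp in wild type. Both mutant lists thus lay below both wild-type lists in number, length covered and median width. For each of these measures the exact permutation test (two-sided) gave p = 0.333, the smallest that 2 against 2 libraries allow.

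Enrichment did not follow peak number. MACS2 gives a broad peak a fold enrichment over input averaged over its length, and the median of this value was 3.89 and 3.91 in the mutant replicates against 3.45 and 3.69 in the wild-type replicates. The mutant medians were higher by 0.333 on average (exact permutation p = 0.333). The lists do not start at the same threshold, since the weakest peaks had a -log10 q of 2.04 and 1.01 in the mutants, against 1.01 and 1.02 in wild type. With the limit of mutant replicate 1 applied to all lists, the median enrichment was 3.89 and 4.12 in mutants and 3.92 and 4.14 in wild type. The difference was then -0.0269 (exact permutation p = 0.667), so its direction depended on the threshold, and no difference in median enrichment was shown.

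Stricter thresholds narrowed the gap in peak number between the spike-in replicates, and nearly closed it at limits of 5 to 10. In replicate 1 wild type held 80.9 times as many peaks as the mutant at the common limit. There it held 96.7 times as many at a -log10 q of at least 3. At the common limit 21 and 489 peaks remained in mutants, against 1698 and 807 in wild type. At a -log10 q of at least 3 the numbers were 9 and 400 in mutants against 870 and 483 in wild type. At this stricter limit the median width in replicate 2 was 225 bp in the mutant and 200 bp in wild type, so the order seen in the full lists did not hold there. At a limit of 5 the numbers were 8 and 297 in mutants against 300 and 312, and at 10 mutant replicate 2 had 188 peaks, more than wild-type replicates 1 and 2 with 133 and 184. Most of the excess of wild-type peaks over mutant replicate 2 was therefore among the weakly scored peaks, while mutant replicate 1 stayed far below the other lists at every limit.

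**Figure D1:**
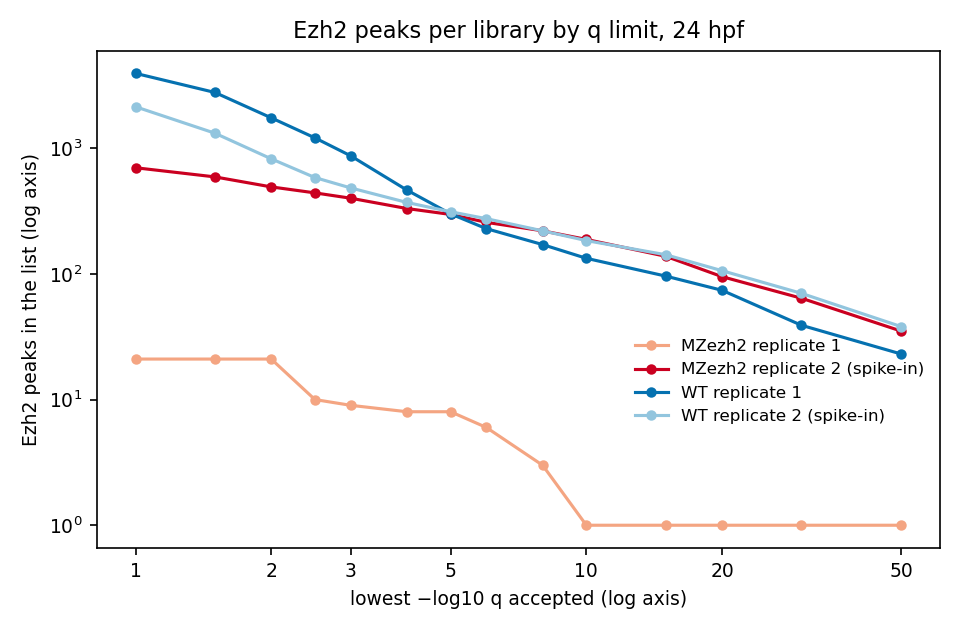
Number of Ezh2 peaks (vertical log axis) that remain in each of the 4 libraries as the lowest accepted -log10 q (horizontal log axis) is raised; points are single libraries. Mutant replicate 2 and both wild-type replicates come together at a limit of 5, with 297, 300 and 312 peaks, whereas mutant replicate 1 has 8.

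The same contrast appeared when single regions were followed between lists. After merging peaks of a list less than 1 kb apart, 630 regions remained in mutant replicate 2 and 1878 in wild-type replicate 2. Of the mutant replicate 2 regions with a -log10 q of 10 or more, 162 of 169 (95.9%, Wilson 95% interval 91.7 to 98.0%) overlapped a region of wild-type replicate 2. Of those with a -log10 q from 1 to below 2, 30.9% (24.8 to 37.8%) did. In the other direction, 93.3% (88.3 to 96.2%) of the wild-type replicate 2 regions with a -log10 q of 10 or more were also listed in mutant replicate 2, against 4.34% (3.30 to 5.69%) of the 1130 with a -log10 q below 2. The strongest regions of wild-type replicate 2 were thus found again in the mutant with the same spike-in more often than in wild-type replicate 1, which listed 62.6% (54.9 to 69.6%) of them. For the 1130 with a -log10 q below 2 the order was the opposite, as wild-type replicate 1 listed 51.9% (49.0 to 54.8%). Intervals here and below cover counting error over regions only, and neighbouring regions are not independent.

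To compare all lists at once, the merged regions of the 4 lists were joined into 4656 regions wherever they shared at least 1 bp, and sorted by the lists that hold them. Both wild-type replicates and no mutant replicate listed 500 regions, 10.7% of all. Both mutant replicates and no wild-type replicate listed 0 regions, 0% of all. A further 198 regions were in both wild-type replicates and at least 1 mutant replicate, and 187 only in replicate 2 of both genotypes. Of the 198, 189 were in mutant replicate 2 but not mutant replicate 1, and 9 were in both. This class therefore rests on mutant replicate 2, a single library with spike-in. Wild-type replicate 1 alone held 2827 regions, wild-type replicate 2 alone 698, mutants alone 211, and 35 were shared by wild-type replicate 1 and a mutant replicate. At the common threshold, 184 of 1981 regions (9.29%) were in both wild-type replicates and no mutant replicate, and 0 (0%) in both mutant replicates and no wild-type replicate. Of the 500 regions, 175 (35.0%) overlapped such a region at the common threshold. The -log10 q was under this limit at 313 of the 500 in wild-type replicate 2 and at 65 in wild-type replicate 1.

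The 500 regions absent from both mutant lists, called lost below in this sense only, were wide and modestly enriched. Their median width was 4185 bp (quartiles 933 and 7714 bp), against 411 bp over all 4656 regions, and 81 exceeded 10 kb, of 83 such regions in all. The sorting itself favours width, since lists are joined at 1 bp in common and a wide region meets a second list more easily. Regions of wild-type replicate 1 alone had a median of 415 bp and those of replicate 2 alone of 220 bp. The 198 regions of both wild-type replicates and a mutant replicate had 1048 bp. Enrichment of the 500 had quartiles of 3.80 and 4.56 in wild-type replicate 1 and of 3.60 and 4.10 in wild-type replicate 2, and none reached 10. The replicates differed in how they recorded these domains. Among the 212 regions over 5 kb, peaks of wild-type replicate 1 covered a median of 94.5% of the region with 2 peaks, and peaks of wild-type replicate 2 covered 16.2% with 3 peaks. Where a single merged region of each replicate matched, 4 of 330 pairs (1.21%) had both ends within 20 bp.

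Among regions in both wild-type lists, the share that mutants also listed was lowest in the widest. Of the regions in both wild-type replicates, 41.4% (Wilson 95% interval 33.2 to 50.1%) of those up to 500 bp were also in a mutant list, 56.7% (46.4 to 66.4%) of those from 1 to 2 kb, 28.0% (21.7 to 35.4%) of those from 2 to 5 kb, 3.68% (1.58 to 8.32%) of those from 5 to 10 kb and 1.22% (0.216 to 6.59%) of those over 10 kb. Over all regions of wild-type replicate 1 the pattern differed, with 3.78% (2.99 to 4.76%) up to 500 bp, 16.1% (12.6 to 20.4%) from 1 to 2 kb and 3.01% (1.29 to 6.86%) from 5 to 10 kb. Of the regions in both wild-type lists, Rnf2 peaks of both wild-type replicates overlapped 3.13% of those up to 500 bp and 98.8% of those over 10 kb.

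**Figure D2:**
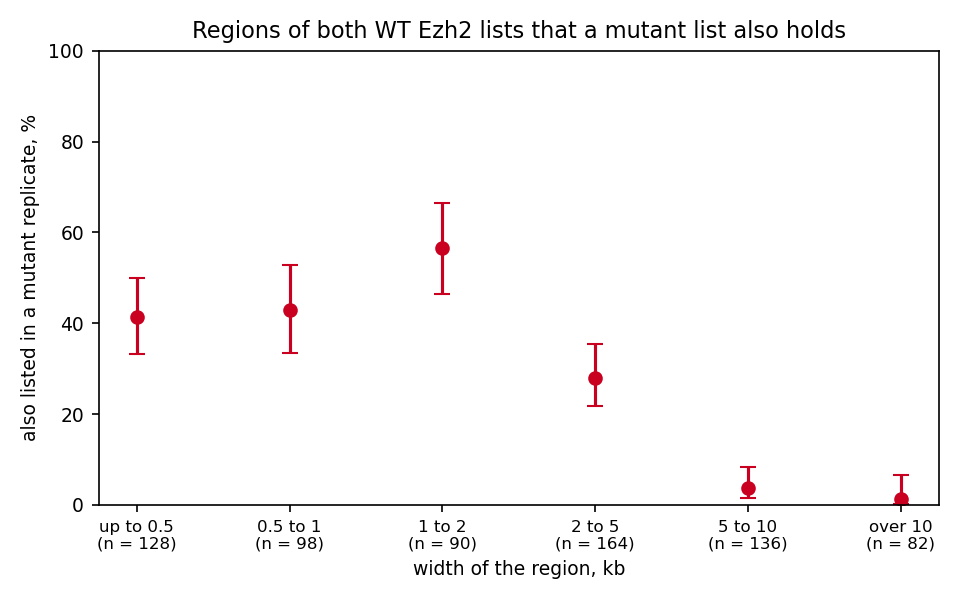
Share of the regions of both wild-type Ezh2 lists that at least 1 mutant list also holds (vertical axis, %), by region width in kb (horizontal axis); points are shares and bars Wilson 95% intervals. The share is 41.4% up to 0.5 kb, highest at 56.7% from 1 to 2 kb, and 1.22% over 10 kb. All regions counted as held by a mutant list were in mutant replicate 2, and 9 of them also in mutant replicate 1.

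The 10 widest regions of both wild-type replicates were all absent from both mutant lists. The widest, chr23:35943011-36013840 on GRCz10, spanned 70830 bp, with an Ezh2 enrichment of 4.25 and 4.19 in wild-type replicates 1 and 2. It also carried H3K27me3 in both wild-type replicates (6.74 and 5.44) and in no mutant replicate. The next, chr17:38289524-38325459, was enriched 4.23 and 3.67 times for Ezh2. It was followed by chr9:1957632-1991801 at 4.24 and 3.86. Neighbouring regions at chr19:20186009-20217707 and chr19:20160602-20184914 reached 4.19 and 3.98, and 4.25 and 4.18. The other 5 spanned 19189 to 20716 bp, on chromosomes 3, 14, 24 and 25. All 10 were listed for H3K27me3 in both wild-type replicates and for Rnf2 in both wild-type replicates, and none for H3K27me3 in either mutant replicate. Rnf2 was also listed in a mutant replicate at 5 of the 10, against 9.6 and 11.4% of the 500 lost regions in mutant replicates 1 and 2. A match needed only 1 bp in common, and shares at equal width were not compared. At the widest, Rnf2 had an enrichment of 4.70 and 17.9 in mutants and of 12.4 and 6.89 in wild type. At the other 4 it was listed in mutant replicate 2 alone, at 5.12 to 6.23. These 10 regions were not matched to genes, so they are given by coordinate.

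At 3 loci that the study names as Polycomb targets, 8 of 14 Ezh2 regions were in both wild-type replicates and no mutant replicate. Of the others, 5 were only in wild-type replicate 1 and 1 only in wild-type replicate 2. Over all 4656 regions, these classes held 500 (10.7%), 2827 (60.7%) and 698 regions. The loci were taken from targets the study names, so they do not represent all regions. Other targets the study names, such as isl1, were not analysed here. At the hoxab cluster, a set of homeobox genes that pattern the body axis, the region chr16:21094478-21112152 spanned 17675 bp and ranked 13th by width among the 698 regions of both wild-type replicates. Its peak had an enrichment of 4.28 and a -log10 q of 3.66 in wild-type replicate 1. In wild-type replicate 2 the widest peak of the cluster measured 622 bp, at 3.97 and a -log10 q of 2.12. At tbx5a and tbx3a, T-box transcription factors of limb and heart development, the widest region was chr5:71531212-71542479, 11268 bp long, with an enrichment of 4.67 in wild-type replicate 1, while its widest peak in replicate 2 had 3.68 over 2148 bp. At gsc, a homeobox gene of the embryonic organizer, the region chr17:19322316-19329437 had peaks of 7122 and 4681 bp in replicates 1 and 2, at 4.47 and 4.26. The highest -log10 q was 3.66 to 7.07 over these loci in wild-type replicate 1 and 2.22 to 2.95 in replicate 2. No mutant Ezh2 peak was listed at any of these loci, but most regions of the wild-type Ezh2 lists had none either.

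The highest single enrichment values lay in narrow regions, most of them shared between genotypes. Narrow regions were not more enriched in general. Among regions of both wild-type lists, the median in wild-type replicate 1 was 3.66 up to 500 bp and 4.49 over 10 kb. In wild-type replicate 2 it was 3.88 and 3.96. The 50 regions with the highest Ezh2 enrichment in any list (9.74 to 83.3) had a median width of 258 bp and included 0 of the 500 regions lost in mutants. Of the 50, 25 were listed only in replicate 2 of both genotypes and 14 only in wild-type replicate 1. A further 9 were in both wild-type replicates and a mutant replicate, 1 only in wild-type replicate 2 and 1 only in a mutant. Over all 4656 regions, these classes held 4.02%, 60.7%, 4.25%, 698 regions and 4.53%, in the same order. The regions lost in mutants made up 10.7%. Enrichment is averaged over the length of a peak, and whether this keeps wide domains from the highest values was not tested. Among the 10 regions with the highest mean enrichment over both wild-type replicates, all were also in at least 1 mutant list. They were not equally high in the replicates, as at chr1:7964976-7966948 with 4.205 in mutant replicate 2 and 27.5 and 3.77 in the wild-type replicates.

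**Figure D3:**
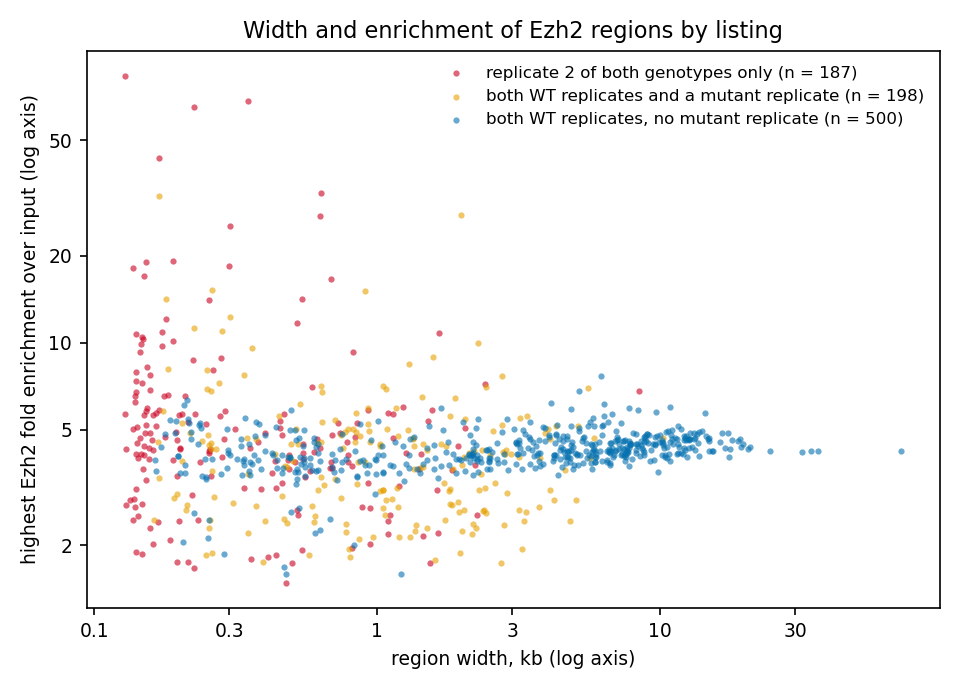
Width in kb (horizontal log axis) and highest Ezh2 enrichment over input in any list (vertical log axis) of the regions in 3 classes; each point is a region. The 500 regions of both wild-type replicates and no mutant replicate lie under 10 at every width and hold the domains over 10 kb but for 1, whereas the 187 regions of replicate 2 of both genotypes reach 83.3 at under 1 kb.

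The 5 highest regions of mutant replicate 2 were among those listed only in the spike-in replicate of both genotypes. Their choice by the mutant value favours a higher mutant value, and over the whole class of 187 the mutant was higher at 127 (67.9%). The region chr21:28987567-28987695, 129 bp long, had an enrichment of 83.3 in mutant replicate 2 and 70.2 in wild-type replicate 2, and no other list of any antibody held it. The region chr16:7576736-7577084 reached 68.1 in mutant and 56.8 in wild type with the Ezh2 antibody, and 74.2 in mutant and 29.8 in wild type with the H3K27me3 antibody, again in replicate 2 only. At chr24:135832-136057 Ezh2 reached 65.0 in mutant and 54.3 in wild type, and H3K27me3 60.3 and 25.3. At chr9:5231511-5231679 the values were 43.3 in mutant and 30.3 in wild type, and at chr11:1209288-1209921 32.9 and 27.6. These regions were thus recovered in libraries of both genotypes and, 4 of 5 times, with both antibodies, but apart from a single H3K27me3 list they were missing from the libraries without spike-in.

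Over all 187 regions of this class, replicate 2 of H3K27me3, which also carried the spike-in, listed 74.9% (68.2 to 80.5%) in mutants and 62.0% (54.9 to 68.7%) in wild type. Replicate 1 of H3K27me3, without spike-in, listed 20.9% (15.6 to 27.2%) in mutants and 12.8% (8.78 to 18.4%) in wild type. The Rnf2 and H3K4me3 lists, also without spike-in, ranged from 2.67% in mutant Rnf2 replicate 2 to 48.1% in wild-type Rnf2 replicate 1. Wild-type H3K4me3 replicate 1 listed 44.4%. The lists differ in length, so these shares do not separate the spike-in from the antibody or the list. Of the 187 regions, 47 were in none of the 14 lists without spike-in, and 18 were in all 4 lists with it and in none without. Enrichment in mutant and wild-type replicate 2 was closely similar, with a median log2 ratio of mutant over wild type of 0.10 and a Spearman correlation across these regions of 0.903, and 46.5% had both ends within 20 bp. This was not particular to the class. At 183 matched regions also in wild-type replicate 1, but not in mutant replicate 1, these values were 0.08, 0.902 and 38.3%. Regions of a library pair share its input, so these correlations describe the lists and carry no test. Whether the added chromatin or antibody gave the peaks of the 187 regions was not tested.

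The tallest regions of wild-type replicate 1, chosen after their values were seen, were not found again either. The region chr17:117241-117969 reached 78.1, chr1:53289654-53291090 57.7 and chr20:9983805-9984163 52.0, and none was in another Ezh2 list. The last pair was in no list of any other antibody.

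The 198 regions of both wild-type replicates and a mutant replicate differed from the 500 in several ways that the sorting did not use. The 500 were listed for H3K27me3 in 1.20% (0.551 to 2.59%) and 4.40% (2.92 to 6.57%) of cases in mutant replicates 1 and 2, against 84.2% (80.7 to 87.1%) and 83.2% (79.7 to 86.2%) in wild-type replicates 1 and 2. The 198 were listed for H3K27me3 in 56.6% (49.6 to 63.3%) and 88.9% (83.8 to 92.5%) of cases in mutants, against 81.8% (75.9 to 86.6%) and 88.9% (83.8 to 92.5%) in wild type.

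Rnf2 separated the classes in some lists only. At the 500 regions, Rnf2 was listed at 9.6% (7.32 to 12.5%) and 11.4% (8.90 to 14.5%) in mutant replicates 1 and 2, and at 94.0 and 67.0% in wild-type replicates 1 and 2. At the 198 regions the shares were 73.7% (67.2 to 79.4%) and 14.1% (9.97 to 19.7%) in mutants and 96.0 and 14.6% in wild type. The intervals of mutant replicate 2 overlapped between the classes. The wild-type Rnf2 lists held 19509 and 991 peaks, and the shorter list, of replicate 2, held 67.0% (62.8 to 71.0%) of the 500 and 14.6% (10.4 to 20.2%) of the 198. Of the regions in both wild-type Ezh2 lists, those with H3K27me3 and Rnf2 in both wild-type replicates were in a mutant Ezh2 list in 26 of 358 cases (7.26%, 5.00 to 10.4%). Those with H3K27me3 but without Rnf2 in both were in a mutant list in 128 of 200 cases (64.0%, 57.1 to 70.3%). The 358 had a median width of 5885.5 bp and the 200 of 1042.5 bp. Since the mutant share also varied with width, and equal widths were not compared, Rnf2 and width cannot be told apart here.

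**Figure D4:**
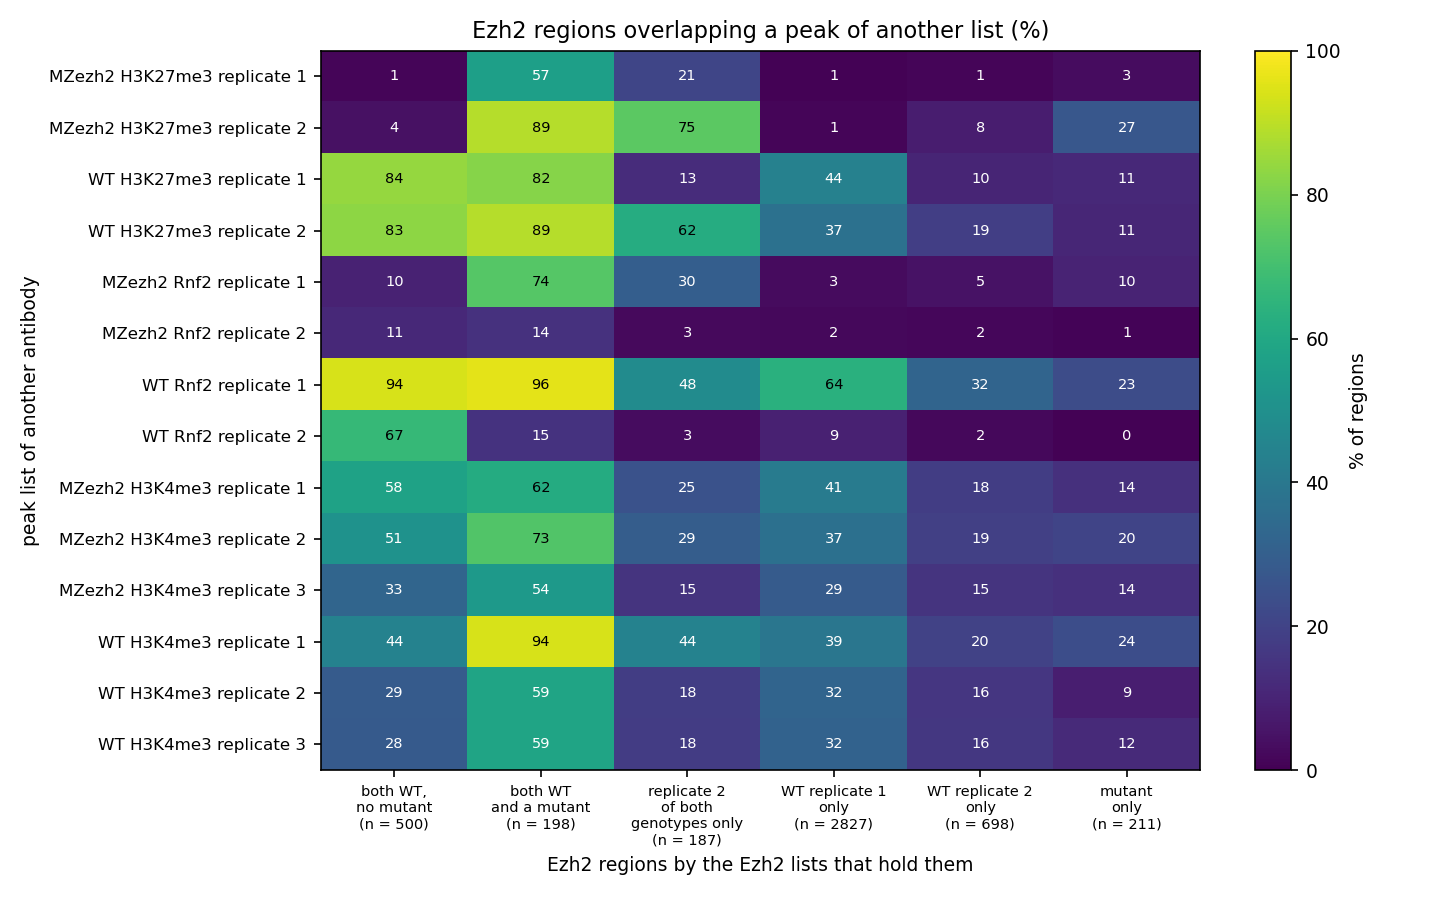
Share of Ezh2 regions (%, written in each cell) that overlap a peak of another antibody's list, by list (rows, mutants above wild type for each antibody) and by the Ezh2 lists that hold the region (columns, with n). The regions of both wild-type replicates and no mutant replicate have 84 and 83% in the wild-type and 1 and 4% in the mutant H3K27me3 lists, whereas those also in a mutant Ezh2 list have 57 and 89% in the mutant H3K27me3 lists.

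The 500 regions themselves fell into groups by the marks they shared. In 332 (66.4%), H3K27me3 and Rnf2 were listed in both wild-type replicates, with a median width of 6489 bp and a median Ezh2 enrichment of 4.34 in wild-type replicate 1. In 72 (14.4%), H3K27me3 but not Rnf2 was in both, at 1017 bp and 3.74. In 93 (18.6%) neither was in both, at 441 bp and 3.66, and 11 of these were in no list of another antibody. H3K4me3 was listed in at least 1 wild-type replicate at 38.6% of the 332 wide regions and at 63.4% of the 93 narrow ones.

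H3K4me3 was listed somewhat more often in mutants at the regions that lost Ezh2, but not beyond the spread between libraries. It was present at 57.6, 50.8 and 32.6% of the 500 regions in the 3 mutant replicates, against 44.4, 28.6 and 28.2% in the 3 wild-type replicates. The means were 47.0 ± 12.9% in mutants and 33.7 ± 9.24% in wild type (SD, n = 3 each), and the exact permutation test gave p = 0.2 where 0.1 is the smallest possible. At the 198 regions the order was the opposite, with 62.8 ± 9.40% in mutants and 70.4 ± 20.4% in wild type (exact permutation p = 0.7). H3K4me3 was in every replicate of both genotypes at 18.2% of the 500, 33.8% of the 198 and 20.3% of all 4656 regions. At 19 of the 500 regions (3.80%, 2.45 to 5.86%), all 3 mutant replicates and no wild-type replicate listed H3K4me3. This was so at 0.623% of all 4656 regions and at 0 of the 198 regions also listed for Ezh2 in mutant replicate 2. The reverse held at 2 of the 500. These sets differ in width, with medians of 4185 bp in the 500, 1048 bp in the 198 and 411 bp over all regions. A match needed only 1 bp in common, and shares at equal width were not compared. All 19 had H3K27me3 and Rnf2 in both wild-type replicates, and they measured 2238 to 35936 bp. The widest was the 35936 bp region on chromosome 17 named above, with an H3K4me3 enrichment of 5.94, 4.73 and 3.39 in the mutant replicates. The next in width were chr14:5361176-5378568 (5.91, 4.26 and 3.77) and chr14:35876572-35892878 (3.80, 3.40 and 2.98).

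Both mutant replicates shared 10 regions, and 9 of these were in both wild-type lists as well. At the remaining region, chr13:1134028-1134347, the enrichment was 4.97 and 3.88 in mutant replicates 1 and 2 and 3.28 in wild-type replicate 1. The highest of the 10 was chr13:40038791-40038959, 169 bp long, with 27.2 and 31.8 in mutants and 26.02 and 32.1 in wild type, and with 72.9 in mutant and 83.8 in wild-type replicate 1 for Rnf2. At chr17:53292610-53292870 the values were 7.07 and 14.8 in mutants against 12.5 and 15.2 in wild type. At chr2:56358467-56358748 they were 5.39 and 10.95 against 7.31 and 10.6. The regions on chromosomes 17 and 2 had a peak in all 14 lists of the other antibodies.

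The other 6 shared regions were found in 7 to 14 of the 14 lists of the other antibodies. The region chr20:53391446-53392521 had 6.76 and 5.79 in mutants and 5.53 and 6.94 in wild type, and an Rnf2 enrichment of 16.5 and 10.3 in mutants and 10.4 and 10.0 in wild type. Low but highly scored enrichment was found at chr20:4437706-4437946, with 4.59 and 3.26 in mutants and 2.62 and 3.34 in wild type, where the -log10 q was 241 in mutant and 303 in wild-type replicate 2. At chr16:15764629-15768897, the widest of the 10 at 4269 bp, the enrichment was 5.16 and 3.51 in mutants against 2.29 and 3.62 in wild type. At chr10:16836070-16836709 it was 5.32 and 2.18 against 2.12 and 2.11, and at chr17:39990737-39992149 3.69 and 1.73 against 1.37 and 1.61. The last lay on an unplaced scaffold, with 3.12 and 1.59 in mutants and 1.501 and 1.57 in wild type.

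Most mutant Ezh2 regions overlapped a mutant peak of another antibody, as did many regions without a mutant Ezh2 peak. Of the 630 merged regions of mutant replicate 2, 475 (75.4%, 71.9 to 78.6%) overlapped a mutant peak for H3K27me3, Rnf2 or H3K4me3, and 430 (68.3%, 64.5 to 71.8%) a wild-type Ezh2 peak. Such a peak was also present at 49.8% of all 4656 regions and at 65.6% of the 500 lost in mutants. By antibody, 62.9% overlapped H3K27me3, 51.3% H3K4me3 and 38.6% Rnf2, and a region may count under several. At a -log10 q of at least 3, 90.8% (87.3 to 93.3%) overlapped a mutant peak of another antibody. In mutant replicate 1, 11 of 21 regions did, among them all 9 with a -log10 q of at least 3. Of the 211 regions in mutant lists alone, 92 (43.6%) were in no list of another antibody, a share close to the 43.8% of wild-type replicate 2 alone, against 18.8% over all regions.

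The regions of both wild-type replicates and a mutant replicate lay close together more often than those lost in mutants. So did the far larger class of wild-type replicate 1 alone, which has no mutant peak. Of the 198, 82 (41.4%, 34.8 to 48.4%) stood in groups of at least 3 less than 100 kb apart. Among the 2827 regions of wild-type replicate 1 alone, 863 (30.5%, 28.9 to 32.3%) did. The share was 13.4% (10.7 to 16.7%) of the 500 and 11.2% (7.46 to 16.6%) of the 187 of replicate 2. It was 0 of the 35 of wild-type replicate 1 and a mutant replicate. The largest group, chr2:19774155-19833847, held 11 regions in 59.7 kb, with enrichment from 2.08 to 4.81 in mutant replicate 2, from 1.59 to 5.14 in wild-type replicate 1 and from 2.01 to 4.17 in wild-type replicate 2. All 11 were listed for H3K27me3 in both mutant replicates and for H3K4me3 in wild-type replicate 1. A group of 8 at chr10:16826807-16881815 was listed for H3K27me3 in both replicates of both genotypes. The largest group among the 500 was chr3:23512130-23641412, with 9 regions of 4201 to 19226 bp, all with H3K27me3 and Rnf2 in both wild-type replicates and none with H3K27me3 in a mutant replicate.

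The chromosomes also differed between these sets. Chromosome 4, whose long arm is rich in repeats and heterochromatin, held 4.76 and 9.16% of the peaks in mutant replicates 1 and 2, the first being 1 peak of 21, and 3.30 and 6.50% in wild-type replicates 1 and 2. It held 10.6% (7.04 to 15.7%) of the 198 shared regions, 8.56% (5.34 to 13.4%) of the 187 regions of replicate 2 and 10.5% (8.40 to 12.9%) of the 698 of wild-type replicate 2 alone, but 1.60% (0.813 to 3.13%) of the 500 lost in mutants, against 4.72% (4.39 to 5.07%) of the H3K4me3 peaks of wild-type replicate 1. Relative to 1000 such H3K4me3 peaks, chromosome 4 had the most peaks of any chromosome in mutant replicate 2 (92.5, median 43.0) and the fewest of the 500 regions (11.6, median 33.1), which were most frequent on chromosome 17 (53.5). Beyond 30 Mb on chromosome 4 lay 13 of its 16 regions of replicate 2, 11 of its 21 of the 198, 2 of its 8 lost in mutants and 63 of its 73 of wild-type replicate 2 alone. A high share on this chromosome was thus found with and without a mutant peak.

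Chromosome 6 had 0 of the 699 peaks of mutant replicate 2, which allows a share of up to 0.429%, and 1 of the 21 of mutant replicate 1. It held 3.71% (3.16 to 4.34%) and 2.39% (1.82 to 3.12%) of the peaks in wild-type replicates 1 and 2. The mutant H3K27me3 lists had 0 of 287 and 14 of 756 peaks there, and the mutant Rnf2 lists 17 of 656 and 9 of 348. The mitochondrial genome had 0 and 7 peaks in mutants and 2 and 1 in wild type.

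**Figure D5:**
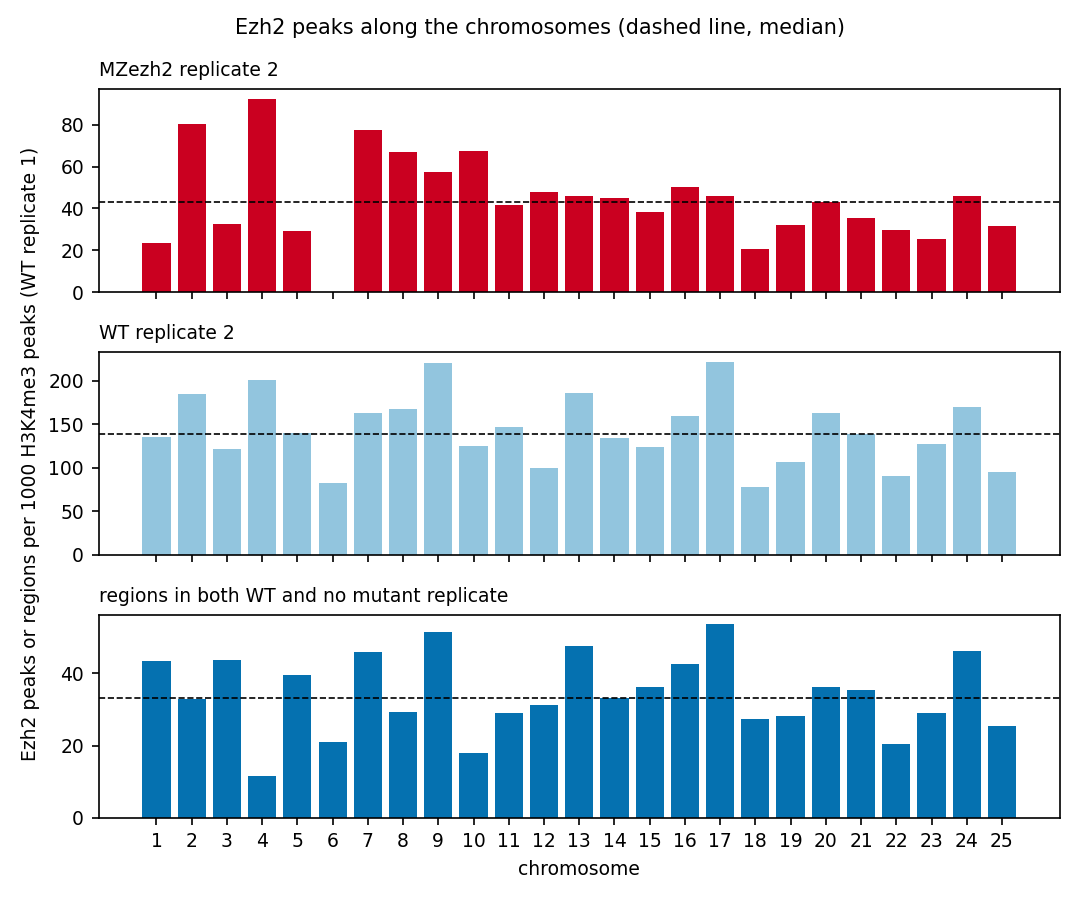
Ezh2 peaks of mutant replicate 2 (top), of wild-type replicate 2 (middle) and regions of both wild-type and no mutant replicate (bottom), per 1000 H3K4me3 peaks of wild-type replicate 1 (vertical axes, each with its own scale) on each of the 25 chromosomes; dashed lines are medians. Chromosome 4 is highest in the mutant at 92.5 and lowest in the bottom panel at 11.6, and chromosome 6 is empty in the mutant.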

How the data were processed

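ChIP-seq of Ezh2 at 24 hpf was used in 2 MZezh2 and 2 wild-type libraries. The authors aligned reads to GRCz10 with BWA, discarded duplicated and ambiguously placed reads, and ran MACS2 2.1.1 on each replicate for broad peaks. The deposited lists give each peak's fold enrichment over input (a ratio), -log10 p, -log10 q and a score derived from it, with no depth. Counts of RNA reads per gene at 24 hpf were deposited unnormalized, 2736282 to 23394029 per library, and were turned into CPM.

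In Python 3.11.15, checked against bedtools 2.31.1, peaks under 1 kb apart were merged, keeping the highest enrichment and -log10 q, and regions matched by 1 bp in common. Libraries were compared by exact permutation tests (two-sided), which place the observed difference in means among those of all relabellings of the libraries. TMM factors came from edgeR 4.0.16. The steps were tested on simulated lists. Regions named are the 10 highest and 10 widest of both wild-type replicates, all of both mutant replicates, the 5 highest of mutant replicate 2, and the hoxab, tbx5a with tbx3a and gsc loci. Members, lists and rules were chosen with earlier results of these data known. Alternatives were other q limits, merging distances, overlaps and left-out libraries.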

Additional observations from a re-analysis of the deposited data

How the results depend on the processing

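Peak number and covered length stayed lower in mutants under both stricter q limits and within each replicate number, and median width did so except in replicate 2 at a -log10 q of at least 3 (225 bp in mutant, 200 bp in wild type). With the replicate number as a block, each exact permutation p was 0.5, the smallest possible. The replicate numbers share the spike-in, as given in the labels, and no other pairing. The difference in median enrichment, 0.333, turned to -0.0269 at the common q limit. Intersections of the merged wild-type lists numbered 1000, and 375 at the common limit and 198 at a -log10 q of at least 3. Regions of both wild-type and no mutant replicate numbered 184 and 61 at these limits and, as alternatives chosen after seeing the data, 176 with the common limit in wild-type lists only, 1198 without wild-type replicate 1, 3327 without wild-type replicate 2, 689 without mutant replicate 2 and 500 without mutant replicate 1. Leaving out a replicate gave 1878 to 3570 regions of wild type, 21 to 630 of mutants and, over all such settings, 500 to 3560 in wild type alone. H3K27me3 in both wild-type replicates was found at 80.8% of the 500. With replicate 1 of both genotypes left out, it was found at 55.6% of the 1490 regions then in wild type alone. With replicate 2 left out, the share was 51.8% of 3560. At a -log10 q of at least 3 it was 62.3% of the 61 regions. Chromosome 4 held 6.75% of the peaks of mutant replicate 2 at this limit and 4.76% of those of replicate 1. Mutant regions with another antibody's peak made up 87.2 and 90.8% at the common and stricter limits. Without merging, wild-type intersections numbered 1211 and regions of both wild-type and no mutant replicate 568. With merging under 3 kb these numbers were 731 and 461. Other alternatives kept direction. Without depths or input peaks, a region absent from a list may lie just under its threshold.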

Other observations

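At the 261 regions listed in all 4 libraries with spike-in (Ezh2 and H3K27me3, replicate 2 of each genotype), enrichment was higher in the mutant than in wild type at 160 regions for Ezh2 and at 236 for H3K27me3. The median log2 ratio of mutant over wild type was 0.06 for Ezh2 and 0.29 for H3K27me3. Each ratio rests on a single library per genotype, and the enrichment is not scaled to the spike-in.

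Wild-type replicate 1 alone listed 2827 Ezh2 regions of a median 415 bp. H3K27me3 in both wild-type replicates overlapped 1023 of them (36.2%), near the 35.9% over all 4656 regions, and 7.74% of the 698 regions of wild-type replicate 2 alone. H3K27me3 in either mutant replicate was listed at 1.49% of the 2827 and at 8.02% of the 698, against 11.02% over all regions.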
